A study of Mus musculus with 5 samples.

Results

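The genes described here are the components, regulators and receptors of complement, 35 genes chosen by symbol from the 54532 genes of the count table. They cover the C1 complex, the lectin pathway proteases, C4, C2, C3 and the alternative pathway, the terminal components, the soluble and membrane-bound regulators, and the anaphylatoxin and complement receptors. All 35 were found, and 26 passed a filter on low counts and were tested, among 15920 genes tested in all. The other 9, C8b, C9, Cfi, Masp1, Masp2, Cr2, C3ar1, C5ar1 and C5ar2, did not pass it and are given by their levels. Poly(A) RNA was sequenced from adipose-derived stem cells, the fat progenitors of the stromal fraction, of 30 wild-type mice on chow, aged 12 to 14 weeks. Subcutaneous fat (SAT) gave 2 libraries and visceral fat (VAT) gave 3. The sort left out cells with CD31 or CD45 and divided the remaining ones by CD26, the surface peptidase encoded by Dpp4, and CD142, the tissue factor encoded by F3.

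The groups were SAT library 2, SAT library 1, 1 VAT CD26+CD142+ library, and VAT CD26-CD142+ libraries 1 and 2. All were from pooled mice of the same genotype and diet, and no label ties a library to separate animals, so every p-value below measures only the spread between these libraries. The labels of the SAT libraries conflict. The title of SAT library 2 says CD26-CD142+ while its name refers to CD26. The title of SAT library 1 says CD26+CD142- while its name refers to CD142. Dpp4 stood at 1007 CPM (counts per 1000000, on library sizes adjusted by the trimmed mean of M values) in SAT library 2 and at 6.58 CPM in SAT library 1. F3 stood at 5.32 CPM in SAT library 2 and at 618 CPM in SAT library 1. For VAT the levels of Dpp4 went with both labels, at 417 CPM in CD26+CD142+ cells and at 5.13 and 6.58 CPM in CD26-CD142+ cells. The sort genes of SAT thus went with the library names and against the titles, and the SAT libraries are called here by their numbers. Total counts ran from 21706345 to 25357403. The 8 fat progenitor markers summed to between 17321 and 36537 CPM, and Pecam1 and Ptprc, the genes of CD31 and CD45, stayed at or below 7.26 and 0.989 CPM.

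Complement is a cascade of plasma and tissue proteins that tags cells and debris for removal. The classical pathway starts when C1q, carrying the proteases C1r and C1s, cuts C4 and C2, the lectin pathway uses the MASP proteases for the same step, and the alternative pathway amplifies through C3, factor B and factor D. All of them meet at C3, whose cleavage leads through C5 to the membrane attack complex of C5b to C9, and host cells hold the cascade back with soluble inhibitors such as C1 inhibitor and with membrane proteins such as CD55, CD46 and CD59. The liver makes most of the plasma proteins, fat is a known source of several of them, and factor D was first described as the adipocyte product adipsin.

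Promoter sequences of 300 bases, 250 before the start of transcription and 50 after it, were read from RefSeq on GRCm38.p6 for 4 members. Cd55 and Vtn are shown because they passed the test in both comparisons between gates, and C3 and C7 because they had the highest level per length of all members and of the terminal members. Lower case is used throughout, and capitals mark matches on either strand to 5 motifs: the interferon-stimulated response element (GAAA, any 2 bases and again GAAA), the gamma-activated site TTCNNNGAA, the kappaB site (GGGA, any base, then TTTCC), the C/EBP site TTGCNNAA and the TATA box TATAAA. The Cd55 window is chr1:130462695-130462994 on the minus strand, the Vtn window chr11:78498870-78499169 on the plus strand, the C3 window chr17:57228087-57228386 on the minus strand and the C7 window chr15:5063724-5064023 on the minus strand.
Cd55: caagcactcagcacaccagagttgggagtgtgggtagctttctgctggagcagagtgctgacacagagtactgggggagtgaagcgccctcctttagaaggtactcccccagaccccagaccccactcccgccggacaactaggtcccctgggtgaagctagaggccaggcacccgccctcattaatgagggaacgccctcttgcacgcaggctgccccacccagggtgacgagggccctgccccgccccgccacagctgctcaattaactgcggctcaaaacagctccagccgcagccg
Vtn: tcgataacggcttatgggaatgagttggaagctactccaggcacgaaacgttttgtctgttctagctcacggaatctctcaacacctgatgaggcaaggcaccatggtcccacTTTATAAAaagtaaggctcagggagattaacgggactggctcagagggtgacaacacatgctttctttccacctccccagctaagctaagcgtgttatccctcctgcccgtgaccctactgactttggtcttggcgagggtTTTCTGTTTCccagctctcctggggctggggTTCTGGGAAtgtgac
C3: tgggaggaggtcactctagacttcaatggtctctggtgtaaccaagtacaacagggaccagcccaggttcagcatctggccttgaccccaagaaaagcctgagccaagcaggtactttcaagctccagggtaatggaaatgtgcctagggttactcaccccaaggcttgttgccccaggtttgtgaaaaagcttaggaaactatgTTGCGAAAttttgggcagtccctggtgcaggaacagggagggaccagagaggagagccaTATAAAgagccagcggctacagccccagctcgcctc
C7: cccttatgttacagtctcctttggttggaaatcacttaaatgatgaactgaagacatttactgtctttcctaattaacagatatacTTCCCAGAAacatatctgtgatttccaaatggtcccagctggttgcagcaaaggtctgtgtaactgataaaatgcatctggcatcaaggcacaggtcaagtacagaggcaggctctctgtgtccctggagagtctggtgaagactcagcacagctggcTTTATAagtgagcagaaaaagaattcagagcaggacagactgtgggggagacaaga
The Cd55 window held none of the 5 motifs. The Vtn window held a TATA box match on each strand, at bases 114 to 119 and 116 to 121, overlapping by 4 bases. It also held an interferon-stimulated response element at bases 255 to 264 and a gamma-activated site at bases 286 to 294. The C3 window held a C/EBP site at bases 206 to 213 and a TATA box match at bases 265 to 270. That TATA box match lies after the start of transcription. The C7 window held a gamma-activated site at bases 87 to 95 and a TATA box match at bases 245 to 250. Of all 32851 mouse promoters in the same table, 3.44% held the interferon motif, 8.30% the gamma-activated motif, 0.411% the kappaB motif, 10.8% the C/EBP motif and 13.6% the TATA box. RefSeq promoters were found for 26 of the 35 members, with 29 promoters in all, and among these the motifs occurred in 3, 5, 0, 6 and 5 promoters in the same order. A match describes letters in the window and is not evidence of binding. No promoter is shown for C1qa, C2, C4a, C4b, Cfb, Cfi, Clu, Masp1 and Serping1.

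Complement genes were a sizeable part of the RNA of these cells, and most of it came from a few of them. The 35 genes together took 3.18% of counts in SAT library 2, 1.66% in SAT library 1, 2.14% in the VAT CD26+CD142+ library, and 1.72% and 2.40% in VAT CD26-CD142+ libraries 1 and 2. Of the 35, 3 were at 1000 CPM or more in every library and 6 at 100 CPM or more, while 21 stayed under 10 CPM in every library. Per kilobase of gene length, and averaged over the 5 libraries, the order from the top was C3 (2250 CPM per kb, the 11th highest of the 15920 tested genes), Serping1 (1601, the 17th), C7 (708, the 50th), C1s1 (498, the 83rd), C1ra (380, the 115th) and C4b (265, the 169th). Neighbours in this order were not clearly apart, since C3 ran from 1037 to 3543 CPM per kb over the libraries and Serping1 from 1115 to 2129, and C7 ran from 236 to 1592 and C1s1 from 447 to 578.

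**Figure D1:**
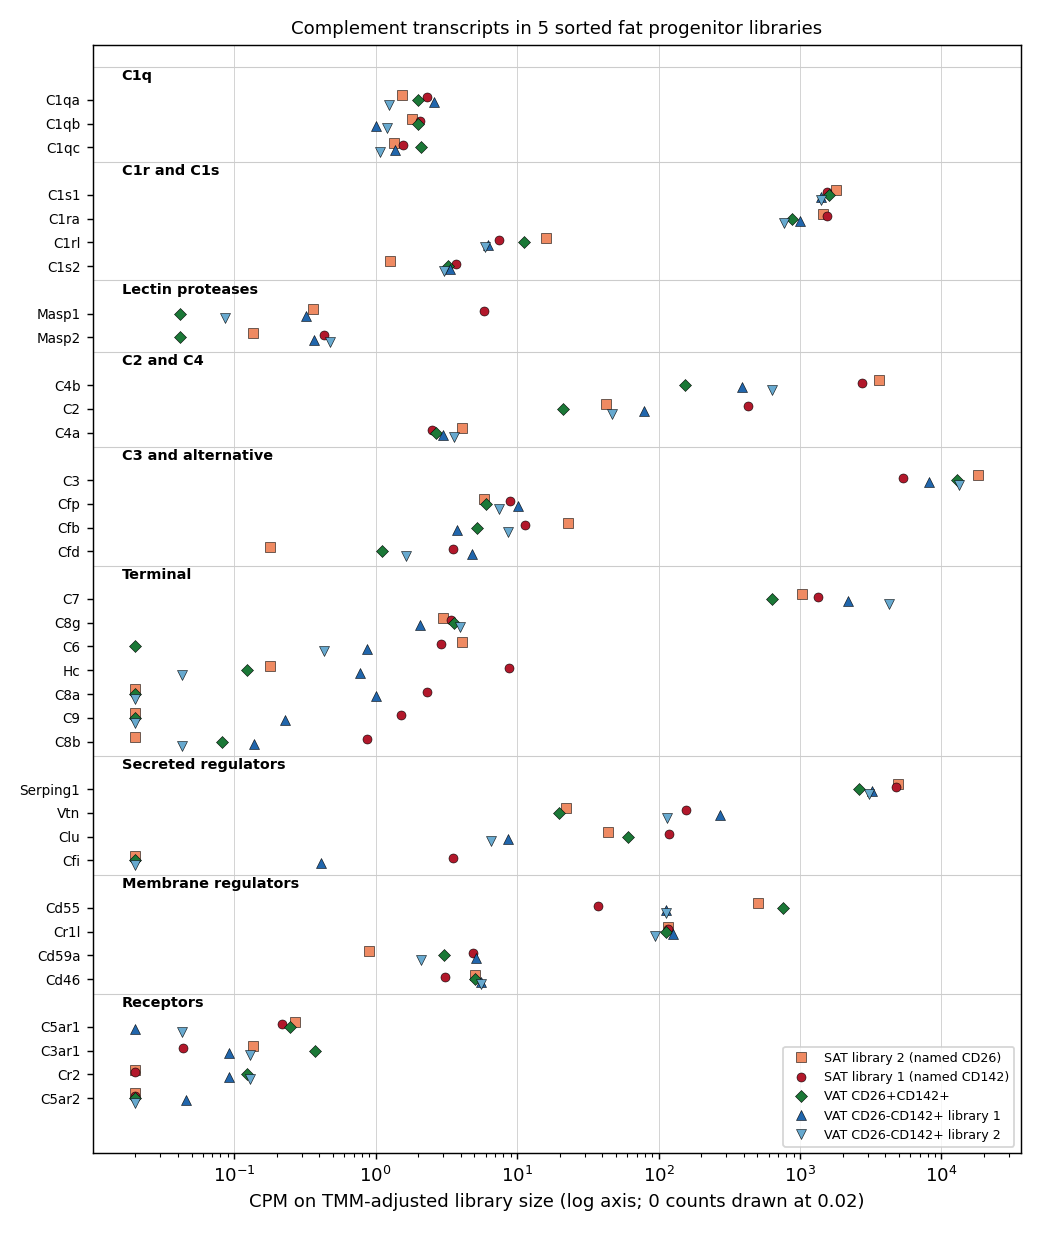
CPM of the complement genes (rows, grouped by role) in each of the 5 libraries (symbols), on a log axis, with counts of 0 drawn at the left edge. C3, Serping1 and C1s1 lie above 1000 CPM in every library, and the receptors at the bottom lie below 1 CPM.

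The classical pathway was represented by its proteases and hardly by C1q. The recognition subunits C1qa, C1qb and C1qc (chromosome 4), known as macrophage products, ranged from 1.01 to 2.57 CPM over all libraries and subunits. The macrophage markers Adgre1 and Ptprc were below 1 CPM in every library, Cd68 was between 2.62 and 19.0 CPM, and Cd14 was between 7.14 and 23.5 CPM. C1s1 (ENSMUSG00000038521, mm10 chromosome 6, 124530345 to 124542359), the protease that cuts C4 and C2, was at 1809 and 1561 CPM in SAT libraries 2 and 1, 1610 CPM in the VAT CD26+CD142+ library, and 1411 and 1399 CPM in the VAT CD26-CD142+ libraries. It was among the steadiest members, with its highest library 1.29 times its lowest. C1ra (chromosome 6, 124512405 to 124523443), the protease that activates C1s, was at 1454 and 1544 CPM in SAT, and at 883, 1006 and 777 CPM in VAT in the same order of libraries. Their relatives were far lower, C1rl between 5.93 and 16.0 CPM and C1s2 between 1.26 and 3.68 CPM. Of the 100-base windows of the C1ra transcript, 34.5% occur also in its copy C1rb, and 7.90% of those of C1s1 in C1s2, so reads between these copies could be split, and C1s1 shares 18.4% of its exon bases with a gene on the opposite strand.

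C4b (ENSMUSG00000073418, chromosome 17, 34728380 to 34743882, a minus-strand protein-coding gene in the class III region of the major histocompatibility complex) encodes the C4 that C1s cuts, and C2 (chromosome 17, 34862604 to 34898265) the protease that joins cleaved C4 in the C3 convertase. C4b was at 3644 and 2722 CPM in SAT libraries 2 and 1, 155 CPM in the VAT CD26+CD142+ library, and 390 and 632 CPM in the VAT CD26-CD142+ libraries. Its lowest SAT library was thus more than 4 times its highest VAT library, and its spread over the 5 libraries, 23.5-fold from lowest to highest, was the widest among members above 10 CPM in every library. C2 was at 42.2 and 429 CPM in SAT libraries 2 and 1, 21.3 CPM in the VAT CD26+CD142+ library, and 79.2 and 46.6 CPM in the VAT CD26-CD142+ libraries, so that SAT library 1 stood apart from the other four. C4a, the close copy of C4b, was between 2.51 and 4.06 CPM. C4b shares 16.5% of its 100-base windows with C4a, and 42.8% of the exon bases of C2 overlap the gene Gm20547 on the same strand.

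C3 (ENSMUSG00000024164, chromosome 17, 57203970 to 57228136), the component at which the pathways meet, was at 18223 and 5331 CPM in SAT libraries 2 and 1, 12896 CPM in the VAT CD26+CD142+ library, and 8179 and 13218 CPM in the VAT CD26-CD142+ libraries. The SAT libraries held its highest and its lowest level, on either side of all 3 VAT libraries. Its alternative pathway partners had low counts. Cfb, factor B, was at 22.9 and 11.4 CPM in SAT and at 5.24, 3.76 and 8.60 CPM in VAT. Of its exon bases 79.5% overlap Gm20547 on the same strand, so its reads could be shared or left uncounted. Cfd, factor D, was at 0.180 and 3.55 CPM in SAT libraries 2 and 1, 1.11 CPM in the VAT CD26+CD142+ library, and 4.81 and 1.63 CPM in the VAT CD26-CD142+ libraries. The mature adipocyte markers, 7 in number, summed to 11.5 and 76.2 CPM, 2.10 CPM, and 14.4 and 25.5 CPM in the same order. Cfp, properdin, which stabilizes the alternative convertase, was between 5.86 and 10.1 CPM.

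Among the terminal components, C7 (ENSMUSG00000079105, chromosome 15, 4988762 to 5063740), which inserts into the membrane with C5b and C6, was the one at a high level. It was at 1036 and 1349 CPM in SAT libraries 2 and 1, 632 CPM in the VAT CD26+CD142+ library, and 2202 and 4260 CPM in the VAT CD26-CD142+ libraries, which were the highest pair. C6 was at 4.06 and 2.90 CPM in SAT and at 0, 0.871 and 0.430 CPM in VAT. The 0 counts of C6 in the VAT CD26+CD142+ library allow up to 0.124 CPM, the level of 3 counts. C8g, a subunit of C8 from the lipocalin family, was between 2.06 and 3.96 CPM. Hc, the gene of C5, and C8a, C8b and C9 were below 10 CPM everywhere and are taken up with the libraries numbered 1 below.

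The soluble regulators were led by Serping1 (ENSMUSG00000023224, chromosome 2, 84765387 to 84775444), the C1 inhibitor, at 4949 and 4735 CPM in SAT and at 2592, 3253 and 3083 CPM in VAT. Both SAT libraries were above all VAT libraries. Clu (ENSMUSG00000022037, chromosome 14, 65968483 to 65981547), clusterin, which blocks insertion of the terminal complex, was at 44.2 and 118 CPM in SAT libraries 2 and 1, 61.2 CPM in the VAT CD26+CD142+ library, and 8.62 and 6.58 CPM in the VAT CD26-CD142+ libraries. Vtn (ENSMUSG00000017344, chromosome 11, 78499091 to 78502324), vitronectin, a matrix and plasma protein with the same inhibitory role, was at 22.1 and 156 CPM in SAT libraries 2 and 1, 19.9 CPM in the VAT CD26+CD142+ library, and 270 and 115 CPM in the VAT CD26-CD142+ libraries. Both libraries with high Dpp4 were thus low for Vtn, and the others were at least 5 times as high.

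Of the membrane regulators, Cd55 (ENSMUSG00000026399, chromosome 1, 130439027 to 130462744), the decay-accelerating factor that takes convertases apart, was at 507 and 37.1 CPM in SAT libraries 2 and 1, 755 CPM in the VAT CD26+CD142+ library, and 112 and 113 CPM in the VAT CD26-CD142+ libraries. It was high in both libraries with high Dpp4 and lower in the other 3. Cr1l, the rodent regulator Crry, which acts at the same step and as a cofactor for cleavage of C3b, was nearly level at 118 and 117 CPM in SAT, and at 114, 126 and 93.8 CPM in VAT. Cd46, a cofactor whose expression in mice is known mainly from the testis, was between 3.07 and 5.59 CPM, and 14.2% of its exon bases overlap genes on the opposite strand. Cd59a, an inhibitor of the formation of the attack complex, was between 0.902 and 5.09 CPM. The receptors Cr2, C3ar1, C5ar1 and C5ar2 had at most 9 reads in any library and at most 0.371 CPM, and the lectin protease Masp2 at most 0.473 CPM. Of the exon bases of Masp2, 54.9% overlap the gene Tardbp on the opposite strand, so its reads could be shared or left uncounted.

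**Figure D2:**
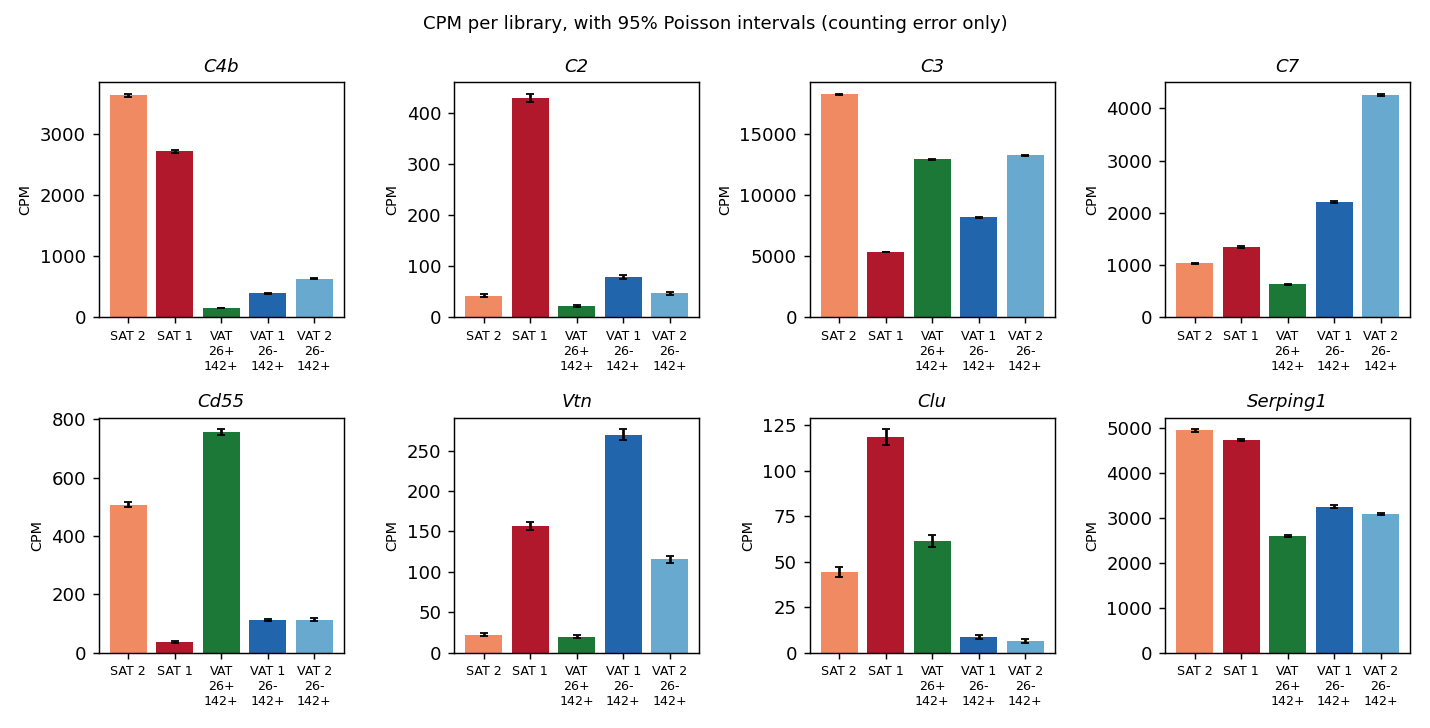
CPM of 8 complement genes in SAT libraries 2 and 1, the VAT CD26+CD142+ library, and VAT CD26-CD142+ libraries 1 and 2 (bars from 0), with exact 95% Poisson intervals that cover counting error only. C4b and Serping1 are higher in both SAT libraries, Cd55 is high and Vtn low in SAT library 2 and the VAT CD26+CD142+ library, and C2 stands out in SAT library 1.

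Whether complement expression differs between depots was asked by comparing the SAT libraries with the VAT libraries, whatever their gate. C4b had the smallest p-value among the members, at 3183 ± 652 CPM in SAT (SD, n = 2) and 392 ± 238 CPM in VAT (SD, n = 3). Its log2 difference of 3.02 (SE 0.64) did not pass edgeR's quasi-likelihood test after Benjamini-Hochberg adjustment over all tested genes (adjusted p = 0.355), but passed with DESeq2 (adjusted p = 0.000118). Over its 12 alternatives the log2 difference of C4b ran from 2.64 to 3.54 and the adjusted p from 0.000118 to 1. No member was called by edgeR (0 of 26, where 0.0503% of all tested genes were called). At an unadjusted p under 0.05 there were 2 of 26, C4b and Cfb, beside 1076 of all 15920 tested genes. DESeq2 called 1 of 26, C4b, beside 2.92% of all genes. Cfb had a log2 difference of 1.55 (SE 0.49, adjusted p = 0.576).

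Serping1 averaged 4842 ± 151 CPM in SAT (SD, n = 2) and 2976 ± 343 CPM in VAT (SD, n = 3), a log2 difference of 0.70 (SE 0.34, adjusted p = 0.866). C1ra averaged 1499 ± 63.9 CPM in SAT and 888 ± 115 CPM in VAT, a log2 difference of 0.75 (SE 0.30, adjusted p = 0.748). Counted over libraries, 5 of the 26 members, C1ra, C4b, C6, Cfb and Serping1, had both SAT libraries above all 3 VAT libraries, where 9.64% of all tested genes did, and 0 had both below, where 10.2% did. Of these, C6 had 90 and 67 reads in SAT libraries 2 and 1, against 0, 19 and 10 in VAT. It passed the filter on low counts only through the SAT libraries, so its place among the 5 is no support for a depot difference. C3 averaged 11777 ± 9116 CPM in SAT and 11431 ± 2821 CPM in VAT, a log2 difference of 0.04 that turned to -1.11 without SAT library 2 and to -0.15 without VAT CD26-CD142+ library 1. C2 had a log2 difference of 2.26 (adjusted p = 0.816), which rested on SAT library 1 and was -0.22 without it. The median over the 26 members was 0.08, against 0.01 over all tested genes. As each library sums the RNA of many sorted cells, fewer cells of a type and less RNA per cell cannot be told apart in any of these values.

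Within VAT, titles and library names give the same gates, and the CD26+CD142+ library was set against the CD26-CD142+ pair. The fit has 1 residual degree of freedom, from that pair, and takes the single libraries to be as variable as the pair. Though both gates are labelled CD142+, F3 was lower in the CD26+CD142+ library and did not pass (log2 -1.65, SE 0.56, edgeR adjusted p = 0.246). Cd55 and Clu were higher and Vtn was lower in CD26+CD142+ cells. Cd55, at 755 CPM against 112 and 113 CPM, was 6.70-fold higher (log2 2.74, SE 0.48, edgeR adjusted p = 0.00713). Clu, at 61.2 CPM against 8.62 and 6.58 CPM, was 8.06-fold higher (log2 3.01, SE 0.47, adjusted p = 0.00316). Vtn, at 19.9 CPM against 270 and 115 CPM, was 9.70-fold lower (log2 -3.28, SE 0.65, adjusted p = 0.0198). These were 2 of 26 members called higher, where 0.898% of all tested genes were, and 1 of 26 called lower, where 0.697% were (1.6% in either direction).

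C7 was at 632 CPM in CD26+CD142+ cells against 2202 and 4260 CPM in the pair, a log2 difference of -2.35 (SE 0.67). It did not pass with edgeR (adjusted p = 0.121), and passed with DESeq2 (0.00101) and with edgeR on unfiltered genes (0.0205). C4b, at 155 CPM against 390 and 632 CPM, had a log2 difference of -1.72 (SE 0.62, adjusted p = 0.310 with edgeR and 0.0310 with DESeq2). DESeq2 called 5 of 26 members, beside 2.24% of all genes: the 3 above, C7 and C4b. C2 had a log2 difference of -1.56 (adjusted p = 0.267), and C3 of 0.27 (SE 0.60), with an adjusted p of 1. The median over the members was -0.19 and over all tested genes -0.03. In addition, 6 of the 26 members lay above both libraries of the pair, where 31.3% of all tested genes did, and 10 lay below both, where 33.3% did. The CD26+CD142+ library also held RNA of mesothelial genes. All 10 mesothelial markers were higher in it than in both libraries of the pair, with sums of 257 CPM against 2.48 and 17.4 CPM. Among them Upk3b was at 96.2 CPM against 0.321 and 8.43 CPM, and 3 of the 10 were at 0 in CD26-CD142+ library 1. The 6 mural markers summed to 15.5 CPM against 60.1 and 96.3 CPM, with Rgs5 between 1.38 and 2.60 CPM. The 8 endothelial markers summed to 308 CPM against 75.2 and 76.3 CPM, most of it from Tek, with Pecam1 at 4.70 CPM against 4.90 and 2.32 CPM. The part of any of these in the differences of Cd55, Clu and Vtn was not tested.

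The SAT pair was compared as SAT library 2, with high Dpp4, minus SAT library 1, with high F3. These libraries also differ in the number that ends their names, so gate and library number cannot be told apart in SAT. With 1 library on each side, the spread came from the VAT CD26-CD142+ pair. Cd55 was higher in SAT library 2, and C2 and Vtn were lower. Cd55 was 13.7-fold higher at 507 CPM against 37.1 CPM (log2 3.77, SE 0.64, edgeR adjusted p = 0.00288). C2 was 10.2-fold lower at 42.2 CPM against 429 CPM (log2 -3.34, SE 0.63, adjusted p = 0.00622), and Vtn 7.07-fold lower at 22.1 CPM against 156 CPM (log2 -2.82, SE 0.68, adjusted p = 0.0314). These were 1 of 26 members called higher, where 1.34% of all tested genes were, and 2 of 26 called lower, where 2.46% were (3.8% in either direction).

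C3 was at 18223 CPM in SAT library 2 against 5331 CPM in SAT library 1, a log2 difference of 1.77 (SE 0.72) that did not pass with edgeR (adjusted p = 0.266) and passed with DESeq2 (0.0445). DESeq2 called 5 members, the 3 above, C3 and Hc, beside 4.9% of all genes. Hc passed the filter on low counts only through the libraries numbered 1, of which SAT library 1 is one, so its call is no support. Clu had a log2 difference of -1.42 (SE 0.57, adjusted p = 0.248), and C4b of 0.42 (SE 0.66, adjusted p = 0.850). Cfd had a log2 difference of -4.26 (SE 1.23) that did not pass with edgeR (adjusted p = 0.0747) and passed with edgeR on unfiltered genes (0.0165). On unfiltered genes 7 of all 35 members passed, beside 1130 of 27413 genes. They were the 3 above, Cfd, Hc, C8a and Cfi, the last 2 with 0 counts in SAT library 2. The median over the members was -0.20, against -0.01 over all tested genes. SAT library 1 also held RNA of other cell types. The 5 epithelial markers summed to 0.180 CPM in SAT library 2, with 3 of the 5 at 0, and to 52.0 CPM in SAT library 1, where Epcam was at 25.2 CPM and Krt14 at 0. The 10 mesothelial markers summed to 4.60 CPM in SAT library 2, with 5 of the 10 at 0, and to 175 CPM in SAT library 1, with 1 at 0. Most of the sum in SAT library 1 came from the keratins Krt19, Krt18, Krt8 and Krt7, of which Krt18 was at 0.0451 CPM in SAT library 2 and 46.7 CPM in SAT library 1 (edgeR adjusted p = 0.000146), while Upk3b was at 0.406 and 0.0865 CPM and Msln at 0 in both. The macrophage gene Csf1r was at 1.53 CPM in SAT library 2 and 13.8 CPM in SAT library 1 (adjusted p = 0.0423). The adipocyte markers Plin1 and Adipoq were at 0.271 and 0 CPM in SAT library 2, and at 8.91 and 5.32 CPM in SAT library 1. The 6 mural markers summed to 35.1 CPM in SAT library 2 and 139 CPM in SAT library 1, and 16 liver genes described further on to 9.43 and 335 CPM. The 8 endothelial markers summed to 323 CPM in SAT library 2 and 35.8 CPM in SAT library 1, again mostly Tek. The part of any of these in the differences of Cd55, C2, Vtn and Cfd was not tested.

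**Figure D3:**
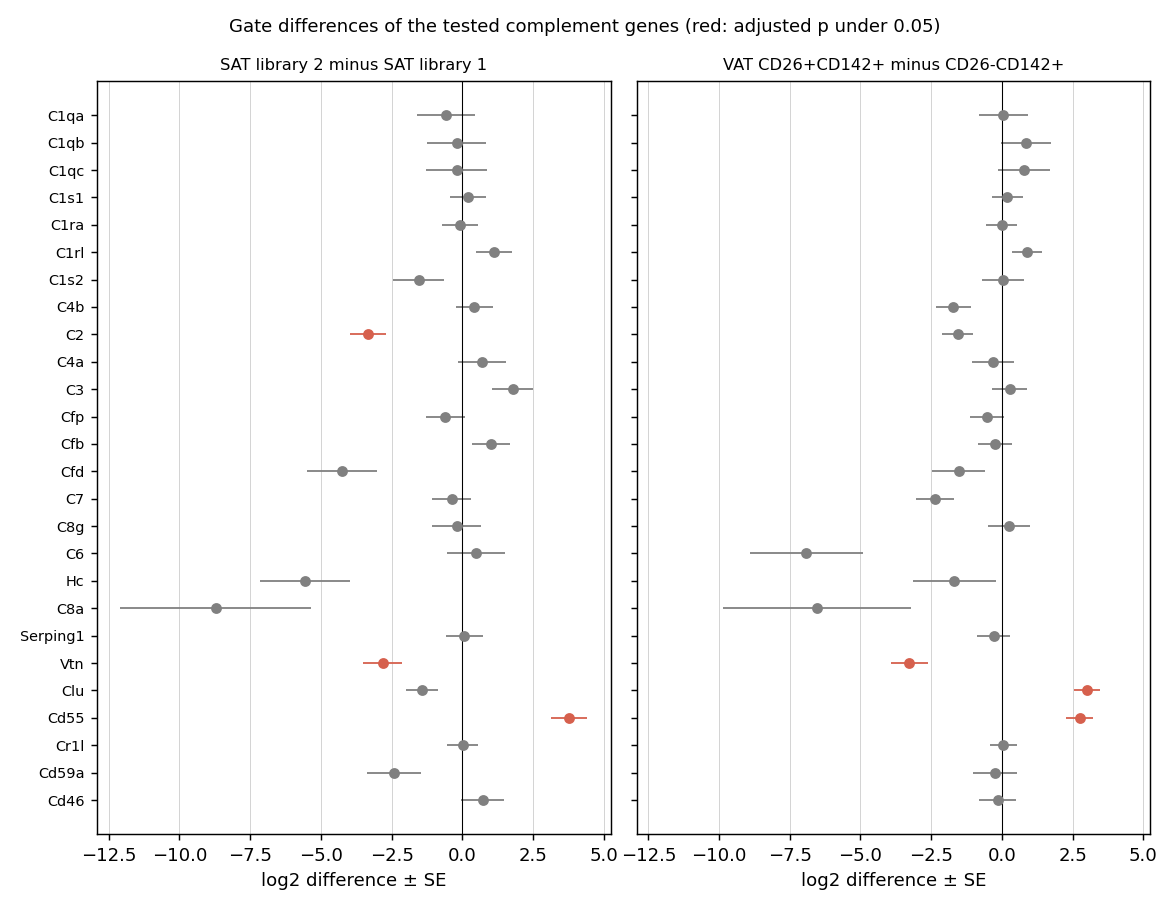
Log2 differences with SE for the tested complement genes, between the SAT libraries (library 2 minus library 1, left) and in VAT (CD26+CD142+ minus CD26-CD142+, right), on a shared scale. Red points passed at an adjusted p under 0.05, which were Cd55, C2 and Vtn in SAT and Clu, Cd55 and Vtn in VAT; the fitted values of C8a (left and right) and C6 (right) rest on a library with 0 counts and give no fold.

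Over both depots, the gate effect depends on which label is used for SAT. By title, with depot as a term, CD26+ minus CD26- gave 0 of 26 members, where 0% of all tested genes passed with edgeR (140 genes and 1 member at an unadjusted p under 0.05). DESeq2 called 16 genes, Clu among them at a log2 difference of 2.36 (adjusted p = 0.0421). By library name, 1 of 26 members passed, where 0.597% of all tested genes did. That member was Cd55, at 507 and 755 CPM in the libraries named for CD26, in SAT and VAT, and at 37.1, 112 and 113 CPM in the others (log2 3.20, SE 0.33, edgeR adjusted p = 0.0417). Vtn by name had a log2 difference of -3.08 (SE 0.47, adjusted p = 0.0811). Both libraries named for CD26 are numbered 2, and of the others only VAT CD26-CD142+ library 2 is. The part of library number in these gate differences was not tested.

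The difference between the depots in the gate effect was tested directly, as the SAT gate change minus the VAT gate change. By title, 4 of 26 members passed with edgeR, where 6.61% of all tested genes did: Cd55 (log2 -6.52, SE 0.82, adjusted p = 0.000139), Vtn (6.10, SE 0.94, adjusted p = 0.00106), C2 (4.91, SE 0.83, adjusted p = 0.00166) and Cfd (5.79, SE 1.56, adjusted p = 0.0358). By library name none of these 4 passed, at log2 differences of 1.03, 0.46, -1.78 and -2.73 for Cd55, Vtn, C2 and Cfd. By name 1 of 26 members passed, where 0.251% of all genes did. It was Clu, with a log2 difference of -4.43 (SE 0.76, adjusted p = 0.0195), lower in SAT library 2 than in SAT library 1 but higher in VAT CD26+CD142+ cells than in VAT CD26-CD142+ cells.

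Several members that are known as liver products were seen mainly in the 2 libraries whose names end in the number 1, one from each depot. Set beside them were 16 genes of liver plasma proteins and enzymes, chosen after the values had been seen. All 16 were higher in both libraries numbered 1 than in all 3 numbered 2, with sums of 335 CPM in SAT library 1 and 151 CPM in VAT CD26-CD142+ library 1, against 9.43, 11.9 and 14.3 CPM in SAT library 2, the VAT CD26+CD142+ library and VAT CD26-CD142+ library 2. Alb, albumin, was at 106 and 52.7 CPM in the libraries numbered 1, against at most 3.97 CPM in the others. C8a had 53 and 22 reads in the libraries numbered 1 and 0 in the other 3. Cfi, the protease that cuts C3b and C4b, had 82 and 9 reads and 0 in the other 3, and C9, which forms the pore, 35 and 5 reads and 0 in the other 3. Hc had 203 and 17 reads, against 4, 3 and 1. Masp1, a lectin pathway protease, had 135 and 7, against 8, 1 and 2, and C8b had 20 and 3, against 0, 2 and 1. Masp1 and C8b thus stood out in SAT library 1 alone.

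The ratio between the libraries numbered 1 is given as a description, with intervals that cover counting error only. Across the 16 liver genes, SAT library 1 over VAT CD26-CD142+ library 1 ranged from 1.43 to 5.33, with a median of 2.19. C8a had a ratio of 2.27 (interval 1.36 to 3.93), C8b 6.29 (1.87 to 33.1) and C9 6.61 (2.58 to 21.6). Cfi had 8.60 (4.32 to 19.5), Hc 11.3 (6.87 to 19.7) and Masp1 18.2 (8.60 to 46.1). The intervals of C8b, C9, Cfi, Hc and Masp1 overlapped one another. Of the 26 tested members, 9 (C1qa, C1s2, C2, Hc, C8a, Cfd, Cfp, Cd59a and Vtn) had both libraries numbered 1 above the other 3, where 24.2% of all tested genes did, and 2 (C3 and Cd55) had both below, where 25.1% did. Hc and C8a passed the filter on low counts only through the libraries numbered 1, so their place among the 9 was fixed by the filter. The part of liver RNA in these values was not tested.

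**Figure D4:**
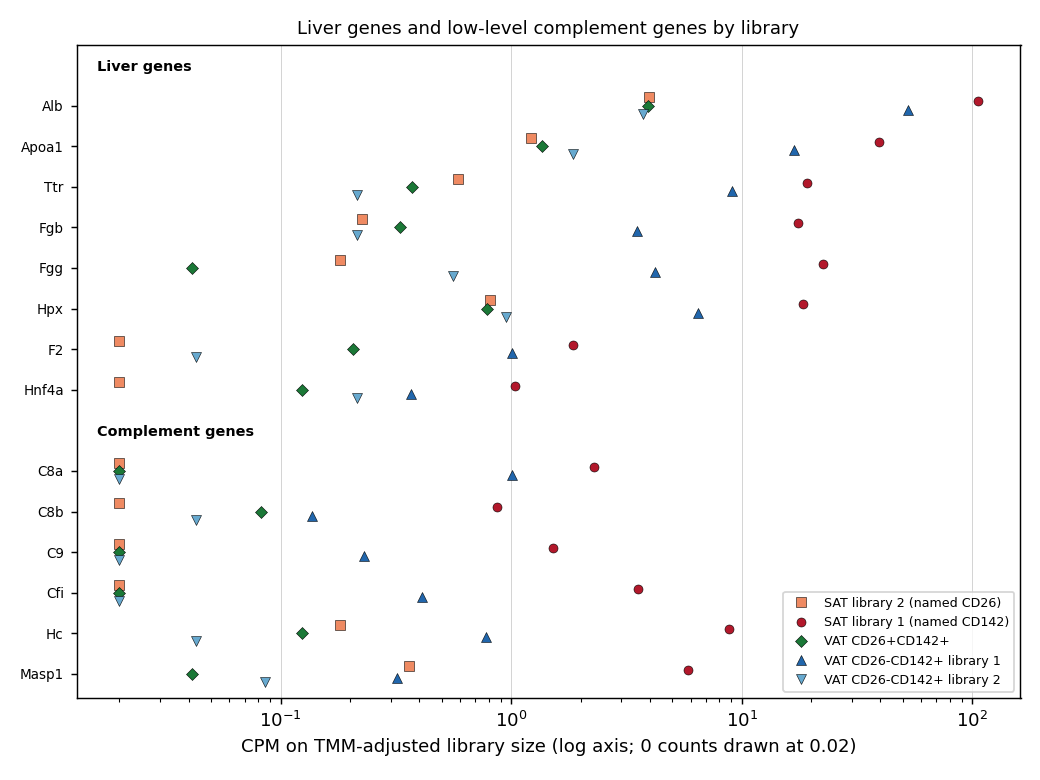
CPM of 8 of the liver genes (upper rows) and of 6 low-level complement genes (lower rows) in the 5 libraries, on a log axis, with counts of 0 drawn at the left edge. Both libraries numbered 1 lie to the right of the 3 numbered 2 for all 8 liver genes, and for C8a, C8b, C9, Cfi and Hc; Masp1 in VAT CD26-CD142+ library 1 lies below SAT library 2.

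Beyond the 35 genes, 29 other genes of the pathway were looked up, of which 16 were tested, and 0 of the 16 passed in any of the comparisons with edgeR or, for depot, the VAT gate and the SAT pair, with DESeq2. At an unadjusted p under 0.05, edgeR had 1 of the 16 for depot, beside 1076 of all 15920 tested genes. It had 1 in VAT, beside 1334 genes, and 4 in the SAT pair, beside 2229. By title it had 0 for the gate, beside 140, and 5 for the difference between depots, beside 2846. By library name these were 3, beside 2551, and 0, beside 712. Ptx3, a pentraxin that binds C1q, was at 559 and 101 CPM in SAT libraries 2 and 1, 228 CPM in the VAT CD26+CD142+ library, and 81.3 and 397 CPM in the VAT CD26-CD142+ libraries, so that both libraries numbered 1 were lowest. Lrp1 and Calr, a receptor and a surface chaperone that bind C1q, were between 1680 and 4187 CPM and between 789 and 1005 CPM. Most soluble pattern receptors of the lectin pathway looked up were close to 0, with Mbl1, Mbl2, Fcna and Fcnb below 1 CPM in every library. Colec11, a soluble collectin, was at 0.316 and 0.995 CPM in SAT libraries 2 and 1, 0.206 CPM in the VAT CD26+CD142+ library, and 2.25 and 1.20 CPM in the VAT CD26-CD142+ libraries (VAT gate, unadjusted p = 0.0366, edgeR adjusted p = 0.508). The membrane collectin Colec12 was at 116 and 205 CPM in SAT libraries 2 and 1, 196 CPM in the VAT CD26+CD142+ library, and 253 and 260 CPM in the VAT CD26-CD142+ libraries.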

How the data were processed

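RNA was measured in 5 poly(A)-selected libraries. The authors deposited raw read counts per Ensembl gene, not normalized, with a gene length in bases as another unit. The submitters' processing notes name the tools HISAT2 2.0.5, CASAVA and featureCounts 1.5.0-p3 and the build mm10. The annotation release and strand setting were not given in the sources used here. Strand is not marked by the library protocol in the labels, so reads where genes overlap could be shared or left uncounted. For genes that overlap on the same strand this holds whatever the strand setting. Libraries were grouped by title, and comparisons that use SAT gates were also made by library name.

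Low genes were removed with filterByExpr, grouped by depot, with its minimum count set to 10. Tests were edgeR 4.0.16 quasi-likelihood F tests (robust, TMM scaling), with Benjamini-Hochberg adjustment over 15920 genes at a threshold of 0.05, in R 4.3.3. The SE is the log2 difference divided by the square root of F, and is not a fitted standard error. Depot had 3 residual degrees of freedom, the CD26 gate with depot as a term 2, and the 4-group contrasts 1. Alternatives were DESeq2 1.42.0, other scaling, no filter, other labels, a block on library number and leaving out libraries. The scripts were tested on simulated data. Intervals are exact at 95% and, like floors of 3 counts, cover counting error only. The members, lists and naming rule (every member, by role) were chosen with earlier results of these data known. The summed level of the macrophage list is not reported here.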

Additional observations from a re-analysis of the deposited data

Results flagged for a closer look

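The 5 results here are tested differences between the depots in the gate effect. They were picked out because the SAT gate change and the VAT gate change of a member differed in edgeR's quasi-likelihood test. By title, the SAT gate change minus the VAT gate change was -6.52 for Cd55, 6.10 for Vtn, 4.91 for C2 and 5.79 for Cfd on the log2 scale. By library name it was -4.43 for Clu. The first 4 rest on the titles of the SAT libraries, which go against the levels of Dpp4 and F3, and by library name they were 1.03, 0.46, -1.78 and -2.73 and did not pass. The difference of Clu was -1.59 by title (adjusted p = 0.270), where it did not pass. Cfd rests on 4 reads in SAT library 2 and 82 in SAT library 1.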

How the results depend on the processing

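Of all tested genes, the number called for depot was 8, with 70 on unfiltered genes, 465 with DESeq2, 5 with the replicate block on library number, 0 with the gate by title as a term, 83 with the gate by name, and 0 in the libraries numbered 2 alone, an alternative chosen after seeing the data. It ran from 0 to 17 when each library was left out. For depot, members called stayed at 0 with edgeR and came to 1 with DESeq2. The groups share no pair of replicate numbers in their titles, so the block pairs libraries only by the number in their names. In VAT, 254 genes were called, 491 on unfiltered genes and 356 to 383 without a SAT library. With DESeq2, 357 genes and 5 members were called there. DESeq2 turned the VAT split of all called genes to 167 higher and 190 lower, from 143 higher and 111 lower. Without either VAT CD26-CD142+ library no residual degree of freedom was left, and Vtn was then -2.54 or -3.76. Between the SAT libraries, 1130 genes and 7 members were called on unfiltered genes and 780 genes and 5 members with DESeq2. Among those 5 was Hc, which passed the filter on low counts only through the libraries numbered 1. For the gate with depot as a term, 16 genes and 1 member were called with DESeq2, 95 and 1 by name, and 0 to 522 genes and 0 to 3 members when each library was left out. On unfiltered genes the fits held 27413 genes and all 35 members, against 15920 and 26 in the main fits. For the difference between depots, 1621 genes and 9 members were called on unfiltered genes, 1141 genes and 7 members with DESeq2, and 40 and 1 by name. The 7 with DESeq2 included Hc and C8a, which passed the filter only through the libraries numbered 1. In the test of the difference between depots, C2, Cd55 and Cfd reversed by name, to -1.78, 1.03 and -2.73. For depot, C2 and Hc reversed to -0.22 and -0.79 without SAT library 1, and C3 to -1.11 when SAT library 2 was left out, -0.15 when VAT CD26-CD142+ library 1 was, -0.044 with the gate by title and -0.34 with the gate by name. For the gate by title, Cd55 (0.90 with all libraries) reversed to -3.78, -0.51 and -0.51 without the VAT CD26+CD142+ library, VAT CD26-CD142+ library 1 and library 2. In the same order Vtn (-0.41 with all libraries) reversed to 2.81 and 0.15, and was -0.47 without the last. The cause of these changes was not tested. The receptors, C8b, C9, Cfi, Masp1 and Masp2 entered the fit on unfiltered genes alone. There Cfi passed in the SAT pair (adjusted p = 0.00565) and in the difference between depots (0.00107) and Masp1 in the difference between depots (0.0465).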
